A study of Mus musculus with 6 samples.

Results

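The genes followed are parts of the muscle motor: 4 light chains of sarcomeric myosin and the kinase that phosphorylates the regulatory ones. The 5 genes are Myl1 and Mylpf, the essential and the regulatory light chain of fast fibres, Myl3 and Myl2, their counterparts in slow fibres, and Mylk2, the light chain kinase of skeletal muscle. They were picked by gene symbol as members of this family, with earlier results of these data known, and 5 of 5 were found among the 23238 symbols counted, each on a single line. The samples were 6 libraries of gastrocnemius, a mostly fast calf muscle, from wild-type C57/BL6J mice aged 26 months, with 3 libraries in each of 2 groups. The vehicle group was dosed by mouth for 30 days with normal saline holding 5% DMSO. The farnesol group received farnesol, a sesquiterpene alcohol, at 350 mg/kg over the same 30 days. All animals were old, and no young group was part of the data, so the comparison is of farnesol with vehicle within old age.

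A myosin head carries a heavy chain, which holds the motor, and a lever arm wrapped by a light chain of each kind, essential and regulatory. The essential chain sits next to the motor and the regulatory chain further down the lever. When calcium rises, calmodulin activates the kinase, which phosphorylates a serine near the start of the regulatory chain, and the phosphorylated heads produce more force at a given calcium level. Slow fibres use Myl3 and Myl2, which are also the light chains of heart ventricle, and fast fibres use Myl1 and Mylpf. Myl1 makes a long and a short protein from separate starts that share their last exons, and counts taken near the transcript end do not separate them.

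The genes lie apart in the genome (mm10, positions of RefSeq GRCm38.p6). Myl1 is on chromosome 1 from 66924295 to 66947932 on the minus strand. Mylpf is on chromosome 7 from 127208848 to 127214288, Myl3 on chromosome 9 from 110763678 to 110769802, Myl2 on chromosome 5 from 122092724 to 122113473 and Mylk2 on chromosome 2 from 152911281 to 152923065, all 4 on the plus strand. The principal transcript used here, from the GENCODE annotation, has 7 exons in each light chain gene and 12 exons in Mylk2. It is 803 bases long for Myl1, 766 for Mylpf, 937 for Myl3, 662 for Myl2 and 2951 for Mylk2. For Myl2 the annotation marks another transcript as principal as well, with 8 exons and 889 bases, which was not used.

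The slow and fast forms are close relatives. Over the aligned coding sequence, the regulatory chains Mylpf and Myl2 shared 71.5% of bases and the essential chains Myl1 and Myl3 75.8%. The first 60 coding bases of the regulatory chains are shown because they hold the codon of the serine that the kinase phosphorylates, in capitals, which is the same triplet in both genes.
Mylpf: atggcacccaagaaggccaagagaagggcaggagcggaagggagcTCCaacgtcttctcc
Myl2: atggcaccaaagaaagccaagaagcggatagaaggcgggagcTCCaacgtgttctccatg
None of the 36-base words of the principal transcripts used for Mylpf, Myl3 and Myl2 occurred in a transcript of another gene. In Mylk2 0.137% of the words did. Reads of those Mylpf, Myl3 and Myl2 transcripts should thus be separable at that length. Other transcripts of the members were not searched. In Myl1 37.0% of the words, 284 of 768, also occurred in the processed pseudogene Mylf-ps. Mylf-ps was not among the symbols counted. How reads with several matches were counted is not given in the sources used here, so the Myl1 count is uncertain by an unknown amount. The words were taken over the whole transcript, so their share is not the share of reads affected. Genes of the opposite strand overlap a member in GENCODE, Pth1r over Myl3 and Ccdc63 over Myl2. They had at most 33 counts and 0 counts in any library, against at least 5344 for Myl3 and 1525 for Myl2.

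The upstream windows of Myl1, Mylpf and Myl3 are printed next, as the light chain windows at hand that contain the start of a GENCODE transcript, 250 bases before to 50 after the RefSeq start, from RefSeq GRCm38.p6. Capitals mark every match on either strand to any of 5 motifs. The E-box, bound by MyoD and its relatives, was searched as CANNTG. The TATA box of core promoters was searched as TATAAA. The MCAT element, bound by TEAD factors, was searched as CATTCC. The MEF2 site and the CArG box were searched by their usual consensus.
Myl1, chr1:66945007-66945306, - strand: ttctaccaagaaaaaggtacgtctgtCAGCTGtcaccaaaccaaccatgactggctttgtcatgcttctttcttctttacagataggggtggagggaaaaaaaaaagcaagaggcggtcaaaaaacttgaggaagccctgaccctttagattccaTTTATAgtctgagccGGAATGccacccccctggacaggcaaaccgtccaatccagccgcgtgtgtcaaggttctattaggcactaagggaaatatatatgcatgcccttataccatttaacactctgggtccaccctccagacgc
Mylpf, chr7:127211358-127211657, + strand: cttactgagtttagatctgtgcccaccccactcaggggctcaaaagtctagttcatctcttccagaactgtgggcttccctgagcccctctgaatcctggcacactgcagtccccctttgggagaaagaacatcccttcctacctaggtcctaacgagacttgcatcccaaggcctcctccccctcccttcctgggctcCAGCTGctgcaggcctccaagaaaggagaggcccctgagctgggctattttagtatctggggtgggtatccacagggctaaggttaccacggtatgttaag
Myl3, chr9:110763428-110763727, + strand: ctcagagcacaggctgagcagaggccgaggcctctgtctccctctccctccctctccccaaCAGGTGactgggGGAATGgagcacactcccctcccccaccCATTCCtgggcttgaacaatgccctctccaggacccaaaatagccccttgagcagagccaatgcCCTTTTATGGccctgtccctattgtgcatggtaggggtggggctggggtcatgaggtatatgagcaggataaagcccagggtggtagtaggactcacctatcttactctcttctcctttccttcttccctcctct
Each of the 3 windows holds 1 E-box, as do 72.3% of all 32851 windows of this length at least once. In Myl1 and Mylpf its letters are CAGCTG, which 16.3% of all windows hold; this word is one form of the E-box and is counted within it. The MCAT letters occur once in the Myl1 window and 2 times in the Myl3 window (14.7% of all windows hold them). The CArG box, bound by serum response factor, was found in the Myl3 window (1.63% of all windows), and the TATA box letters were found in the Myl1 window on the opposite strand (13.6%). The MEF2 site (3.19%) had no match in them. These matches are descriptions of letters. The Myl1 window does not lie at the principal transcript, which starts at 66935354. It holds the start, at 66945143, of another Myl1 transcript, Myl1-201 (1082 bases), further upstream. For Myl2 the table's windows lie at starts upstream of its GENCODE transcripts and are not shown.

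The libraries held 9895700 to 12707751 counts. A count of 0 allows up to 3 counts, 0.251 to 0.310 CPM (counts after division by the scaled library size), for counting error only. Skeletal fibre markers (6 of 6 tested, such as Ttn, Acta1 and Ckm) summed to 114780 to 168560 CPM in vehicle and 122070 to 154930 in farnesol libraries. The long transcript Ttn was the largest part of this sum in each library, at 51992 to 96279 CPM. Heart muscle markers (6 listed) summed to 50.7 to 90.9 CPM over the 6 libraries. Myh6 made up most of that sum, at 44.1 to 74.5 CPM. Of the atrial light chains in the list, Myl7 was at 0 in all 6 libraries and Myl4 at 3.31 to 11.1 CPM. Smooth muscle markers summed to 107 to 164 CPM. Some libraries stand apart. Vehicle replicate 3 held the lowest value of 26.9% of the 1078 genes with a mean of at least 100 CPM, and its skeletal fibre sum, 114780 CPM, was the lowest of the 6. Of the same genes, farnesol replicate 1 held the lowest value of 25.1% and the highest value of 25.9%. Farnesol replicate 1 favoured short transcripts: its deviations correlated with transcript length across genes at -0.24 (Spearman), against 0.02 to 0.10 in the other 5 libraries, and the ribosomal precursor Rn45s took 4.97% of its counts against 9.92% to 15.4% elsewhere. The labels call the libraries of a group biological replicates, without saying whether each came from 1 mouse or from several. In a muscle sample, fewer fibres of a type and less RNA per fibre cannot be told apart.

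Together the 5 genes took 1.45% to 2.48% of a library's counts. On a per-length scale, as CPM per kilobase of the principal transcript, the vehicle means were 11944 ± 4266 (SD, n = 3) for Myl1 and 11558 ± 3247 for Mylpf, which did not differ beyond their spread. Myl3 followed at 657 ± 152, Myl2 at 237 ± 35.8 and the kinase Mylk2 at 115 ± 17.9 on the same per-length scale. The farnesol means kept this order, at 13586 ± 714, 12743 ± 1326, 758 ± 184, 319 ± 68.6 and 103 ± 18.1. Across the 6 libraries the ranges of Myl3 (483 to 962), Myl2 (195 to 392) and Mylk2 (82.9 to 134) on the per-length scale did not overlap, while those of Myl1 (7093 to 15111) and Mylpf (7888 to 14142) did. The Myl2 values rest on its 662-base transcript and would be lower with the 889-base one. If counts came from transcript ends alone, as the library kit is designed to give, plain CPM would be the scale to read. On that scale Mylk2, at 245 to 396 CPM, stood above Myl2, at 129 to 260 CPM, in each of the 6 libraries.

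Farnesol was compared with vehicle to ask whether the light chains and their kinase differ after dosing of old muscle. None of the 5 genes passed an adjusted p of 0.05 over all 11674 genes tested in edgeR's quasi-likelihood test, where 0% of genes passed (adjusted p = 0.99999 for each of the 5). The smallest adjusted p over all genes was 0.563. At an unadjusted p under 0.05 the same test counted 351 genes (3.01%), among them 1 member, Myl2. The 4 light chains had higher fitted values in farnesol libraries and Mylk2 a lower one, with a median log2 fold change of 0.19 over the 5 members and -0.01 over all genes tested. Without vehicle replicate 3, 2 members were higher and 3 lower (median -0.04), and without farnesol replicate 2, 3 were higher and 2 lower (median 0.06). In 0 of the 5 genes were the 3 farnesol values separated from the 3 vehicle values, which 8.82% of all genes showed. The 95% intervals of the folds, given for each gene below, reached up to 1.72, so the counts do not show that the levels were alike.

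Markers of other cell types were compared in the same edgeR fit, and 0 passed over all genes. Of all genes tested, 3.01% had an unadjusted p under 0.05 and 8.82% had groups without overlap. Adipocyte markers (6 of 6 tested) all had higher fitted values in farnesol libraries (median log2 fold change 0.87), with 4 at an unadjusted p under 0.05 (1 without farnesol replicate 1, 2 without vehicle replicate 3) and 4 without overlap. Their sum was 97.1 to 186 CPM in vehicle and 180 to 266 CPM in farnesol libraries. Red cell markers (6 tested) had 5 higher and 1 lower, with a median of 0.49 and 4 at an unadjusted p under 0.05 (2 without vehicle replicate 1 or farnesol replicate 1), and summed to 3500 to 5683 CPM in vehicle and 5472 to 9725 CPM in farnesol libraries. Macrophage markers had 6 of 6 lower (median -0.23, 1 at an unadjusted p under 0.05), but 3 higher and 3 lower without vehicle replicate 3 (median -0.02). Schwann cell markers had 5 of 5 tested higher (median 0.27, 1 at an unadjusted p under 0.05), and 4 without farnesol replicate 1. Endothelial and tendon markers each had 4 higher and 2 lower, and smooth muscle markers 3 and 3. Both the adipocyte and the red cell sums were highest in farnesol replicate 1. The part of these cells in the members' values was not tested.

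**Figure D1:**
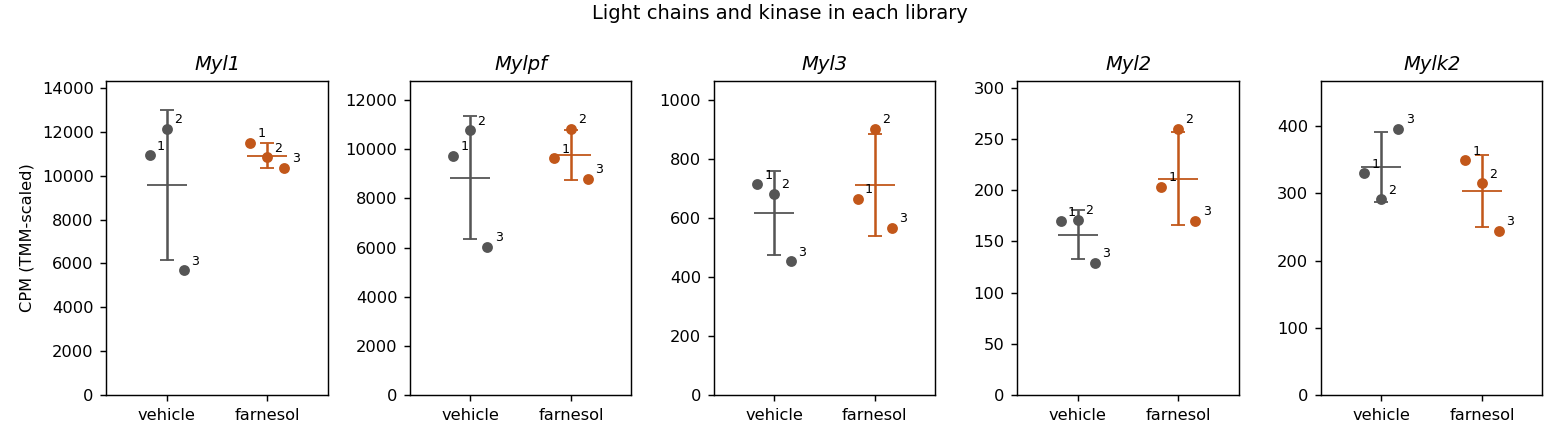
Level of each gene in CPM (y axis, linear, from 0) in the 3 vehicle (grey) and 3 farnesol (orange) libraries; points are libraries with their replicate number, the long bar is the group mean and the whiskers 1 SD. Vehicle replicate 3 is the lowest point for each of the 4 light chains and the highest for Mylk2.

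Myl1, the fast essential chain, was measured at 10943, 12134 and 5696 CPM in vehicle replicates 1 to 3 and at 11513, 10844 and 10373 CPM in farnesol replicates 1 to 3. The farnesol libraries lay close together, within the vehicle range, and vehicle replicate 3 stood at 51.0% of the mean of the other 5 libraries. The log2 fold change was 0.19 (SE 0.22, n = 3 and 3), a 1.14-fold ratio with a 95% interval of 0.823 to 1.57 (edgeR unadjusted p = 0.415). Without vehicle replicate 3 the sign turned, to -0.08.

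Mylpf, the fast regulatory chain and a substrate of the kinase, stood at 9749, 10769 and 6043 CPM in vehicle replicates 1 to 3. The farnesol replicates held 9640, 10833 and 8812 CPM. The groups overlapped, and vehicle replicate 3 was again the low library, at 60.7% of the mean of the other 5. The log2 fold change was 0.14 (SE 0.20), a 1.10-fold ratio with an interval of 0.824 to 1.48 (edgeR unadjusted p = 0.495). It was -0.07 without vehicle replicate 3 and 0.04 with each library's trend on transcript length removed.

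Myl3, the slow essential chain, stood at 714, 681 and 453 CPM in vehicle replicates 1 to 3 and at 664, 901 and 566 CPM in farnesol replicates 1 to 3. Farnesol replicate 2 was the high library, at 146% of the mean of the other 5, and vehicle replicate 3 the low one, at 64.2%. The log2 fold change was 0.21 (SE 0.19) with an interval for the fold of 0.876 to 1.52 (edgeR unadjusted p = 0.291). It was 0.00 without farnesol replicate 2 and 0.03 without vehicle replicate 3.

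Myl2, the slow regulatory chain, stood at 169, 171 and 129 CPM in vehicle replicates 1 to 3. The farnesol replicates held 203, 260 and 170 CPM. Farnesol replicates 1 and 2 lay above the vehicle libraries, and farnesol replicate 3 lay between vehicle replicates 1 and 2, so the groups overlapped. The log2 fold change was 0.43 (SE 0.17), a 1.35-fold ratio with an interval of 1.05 to 1.72. Its edgeR unadjusted p was 0.0193, and 0.882% of the tested genes had a p as small. The p did not pass over all genes. The log2 fold change was 0.25 without farnesol replicate 2 (edgeR unadjusted p = 0.18) and 0.31 without vehicle replicate 3 (0.104). With the length trend removed it was 0.34 (0.0517).

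Mylk2, the kinase, stood at 330, 292 and 396 CPM in vehicle replicates 1 to 3 and at 349, 315 and 245 CPM in farnesol replicates 1 to 3. Vehicle replicate 3, lowest for the light chains, was highest for the kinase, at 129% of the mean of the other 5 libraries, and farnesol replicate 3 was lowest, at 72.7%. The log2 fold change was -0.16 (SE 0.16) with an interval for the fold of 0.706 to 1.13 (edgeR unadjusted p = 0.327). It was -0.04 without vehicle replicate 3 and -0.03 without farnesol replicate 3.

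**Figure D2:**
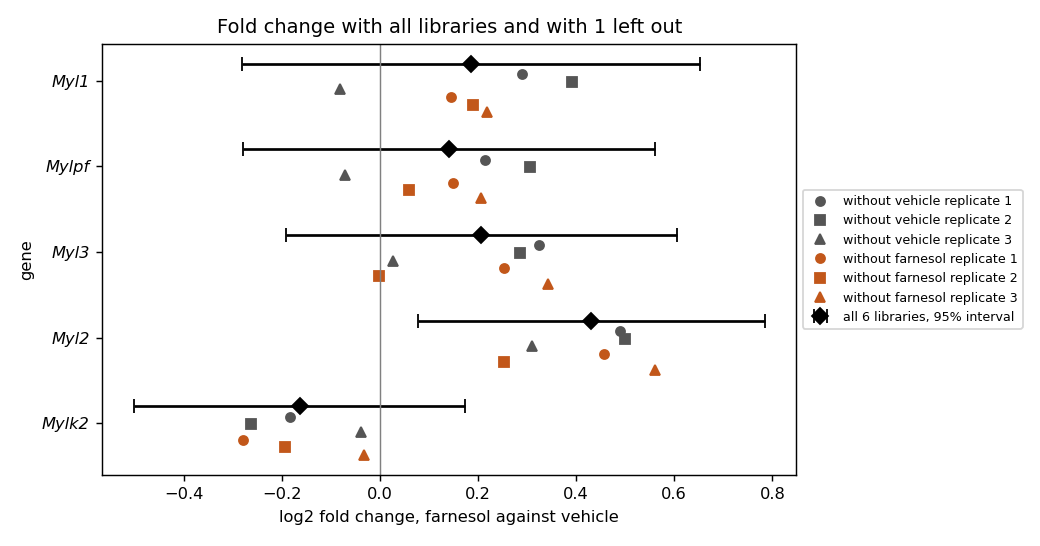
Log2 fold change of farnesol against vehicle (x axis) for each gene (y axis), with all 6 libraries (diamond, 95% interval) and with 1 library left out (grey for a vehicle library, orange for a farnesol library). Without vehicle replicate 3 the values of Myl1 and Mylpf lie below 0, at -0.08 and -0.07, and Myl2 stays between 0.25 and 0.56 in all 6 refits.

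The spread between libraries exceeded counting error in each gene. The counting error of the library with fewest counts was 0.386% for Myl1, 0.375% for Mylpf, 1.37% for Myl3, 2.56% for Myl2 and 2.05% for Mylk2, as a coefficient of variation. The observed coefficient of variation among vehicle libraries was 35.7% for Myl1 and 28.1% for Mylpf, against 5.25% and 10.4% among farnesol libraries. Genes with a mean of at least 100 CPM had a median of 11.2% in vehicle and 11.5% in farnesol libraries. The wide vehicle spread of the fast chains came with vehicle replicate 3. Counting error was thus a small part of the spread in these comparisons, and the intervals for the fold of the 4 genes other than Myl2 included 1.

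Over the 6 libraries the log2 CPM of Myl1 and Mylpf correlated at 0.96 (Pearson; Spearman 0.60), Myl3 and Myl2 at 0.90 (0.60), and Mylpf and Myl3 at 0.90 (0.94). Mylk2 correlated negatively with each light chain, from -0.58 with Myl1 to -0.24 with Myl3 (Pearson). These values describe 6 libraries that were scaled together. Over the 5 libraries without vehicle replicate 3, a set chosen after the values were seen, Myl1 and Mylpf correlated at 0.60, Myl1 and Myl3 at 0.097, and Myl1 and Myl2 at -0.11, while Myl3 and Myl2 stood at 0.80 (Pearson). Mylk2 then correlated positively with each light chain, from 0.38 with Myl2 to 0.54 with Myl3, so the negative sign rested on vehicle replicate 3. By the rule for named genes, the genes most like Myl1 were Secisbp2 (Pearson 0.997), Cbll1 (0.995) and Sypl2 (0.995), out of 6022 genes searched. For each member the genes named here have the highest of these correlations over only 6 libraries. So large a search yields high values between unrelated genes too, and whether these exceed that was not tested. Sypl2, a membrane protein of the muscle triad, stood at 275, 282 and 144 CPM in vehicle replicates 1 to 3 and at 244 to 280 CPM in farnesol libraries, with the same low library. The genes most like Mylpf were Rps21 (0.996), Srp54c (0.995) and Rnft1 (0.989), and those most like Myl3 were Asxl2 (0.981), Eef1a2 (0.980) and Crat (0.977). Nearest to Myl2 were Idh3g (0.983), Nctc1 (0.973) and Cilp (0.956), and nearest to Mylk2 were Gabarapl1 (0.986), Utp6 (0.980) and Nat6 (0.979), all Pearson values over the 6 libraries.

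**Figure D3:**
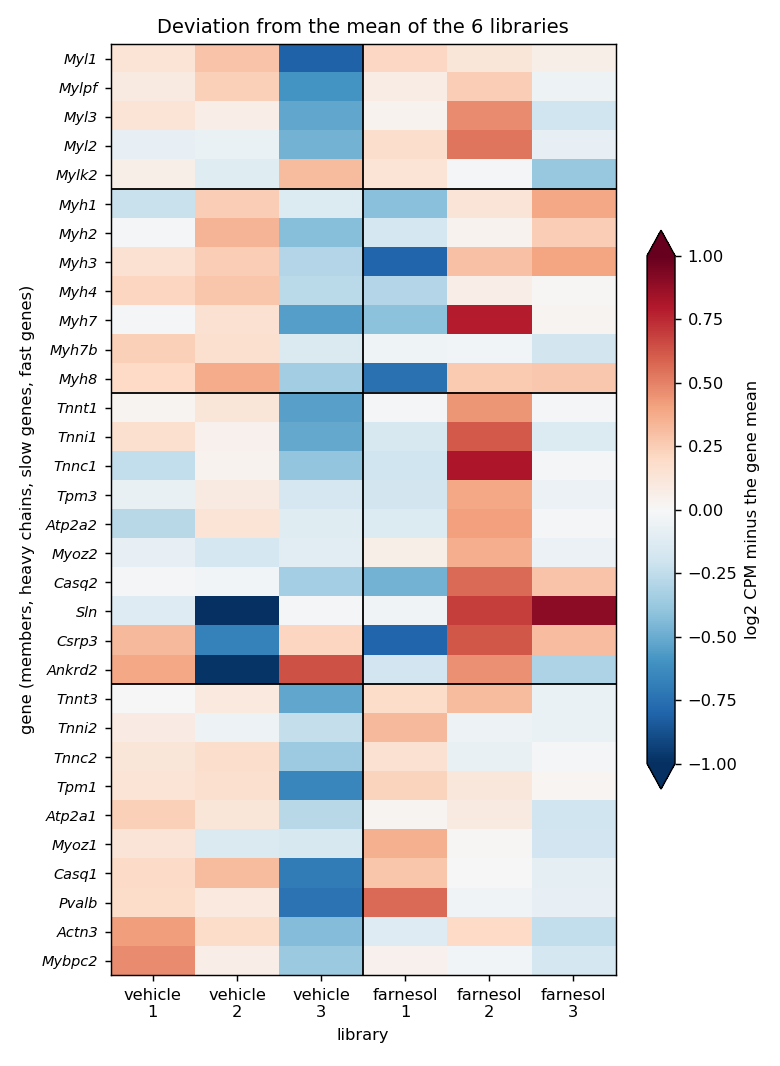
Log2 CPM of each gene (rows: the 5 members, heavy chains, slow fibre genes, fast fibre genes) minus its mean over the 6 libraries (columns); blue is below and red above the mean, and values past 1 in either direction are drawn at the end of the colour scale. The vehicle 3 column is blue for the 4 light chains (-0.47 to -0.81) and for the fast genes, and the farnesol 2 column is red for most slow genes.

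The fast chains shared their low library, vehicle replicate 3, with the slow chains and with other fast fibre genes. Of the 10 slow fibre genes listed, 3 also had their lowest value there, no more than the 3 in vehicle replicate 2 and the 3 in farnesol replicate 1. Of the 10 fast fibre genes listed (troponins, calcium pump, parvalbumin and others), 9 had their lowest value in vehicle replicate 3, where 16.4% of all tested genes and 26.9% of those of at least 100 CPM had theirs. Parvalbumin (Pvalb), the calcium buffer of the fastest fibres, stood at 3660 CPM there against 5769 to 9075 CPM in the other 5 libraries, and Tpm1, the fast tropomyosin, at 12335 against 19691 to 22582 CPM. Macrophage markers (6 of 6 tested) summed to 175 CPM in that library against 79.7 to 134 CPM elsewhere. The skeletal fibre sum was lowest in vehicle replicate 3, but only 2 of its 6 markers were, against 3 of 6 in farnesol replicate 1. The part of either that low sum or the high macrophage sum in the light chain values was not tested.

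The slow chains shared their high library, farnesol replicate 2, with other slow fibre genes. Mylpf, a fast chain, was also highest there, at 10833 CPM against 10769 CPM in vehicle replicate 2. Of the 10 fast fibre genes listed, 1 had its highest value there. Of the 10 slow fibre genes listed, 8 had their highest value in farnesol replicate 2, where 14.7% of all tested genes did. Tnnc1, the slow troponin C, stood at 263 CPM there against 114 to 154 CPM in the other 5 libraries, and the slow heavy chain Myh7 at 465 against 184 to 300 CPM. Between groups, 0 of the 10 slow genes passed over all genes in edgeR (1 had an unadjusted p under 0.05, against 3.01% of all genes), with 9 higher and 1 lower (median log2 fold change 0.24). Without farnesol replicate 2, 6 were higher and 4 lower, with a median of 0.04. Sln, the small calcium pump regulator sarcolipin, stood at 18.3, 7.39 and 19.8 CPM in vehicle replicates 1 to 3 and at 19.5, 32.5 and 37.4 CPM in farnesol replicates 1 to 3 (log2 fold change 0.97, SE 0.33). Myoz2, a calcineurin-binding Z-disc protein of slow fibres, stood at 140 to 149 CPM in vehicle and 152 to 203 CPM in farnesol libraries (0.25, SE 0.15). Of the 10 fast genes 0 passed (0 at an unadjusted p under 0.05) and 7 were higher, with a median of 0.10, but 4 were higher without vehicle replicate 3 (median -0.08) or without farnesol replicate 1 (median -0.04). Tnnt3, the fast troponin T, had a log2 fold change of 0.27 (SE 0.20).

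The heavy chains to which the light chains bind did not share all of this pattern. Of the 7 sarcomeric heavy chains tested, 0 passed in edgeR, 4 were higher and 3 lower (median log2 fold change 0.00, none with an unadjusted p under 0.05). The median was -0.15 when vehicle replicate 3 was left out and 0.16 when farnesol replicate 1 was left out. Myh4, the main fast heavy chain, stood at 59679, 62237 and 42551 CPM in vehicle replicates 1 to 3 and at 42054, 53831 and 51708 CPM in farnesol replicates 1 to 3. Its log2 fold change was -0.16 (SE 0.21), against 0.33 (SE 0.30) for Myh7 and -0.18 (SE 0.22) for Myh7b, a minor slow-type heavy chain. Vehicle replicate 3 was low for Myh4 as for the light chains, but farnesol replicate 1 was as low, where Myl1 and Mylpf were not. Fast light chain counts per 100 fast heavy chain counts (Myl1 and Mylpf over Myh1, Myh2 and Myh4) were 31.5, 32.7 and 24.5 in vehicle replicates 1 to 3 and 44.7, 35.7 and 32.1 in farnesol replicates 1 to 3. The highest value belonged to farnesol replicate 1, the library whose counts favoured short transcripts, and the heavy chain transcripts are long. The part of transcript length in this ratio was not tested.

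**Figure D4:**
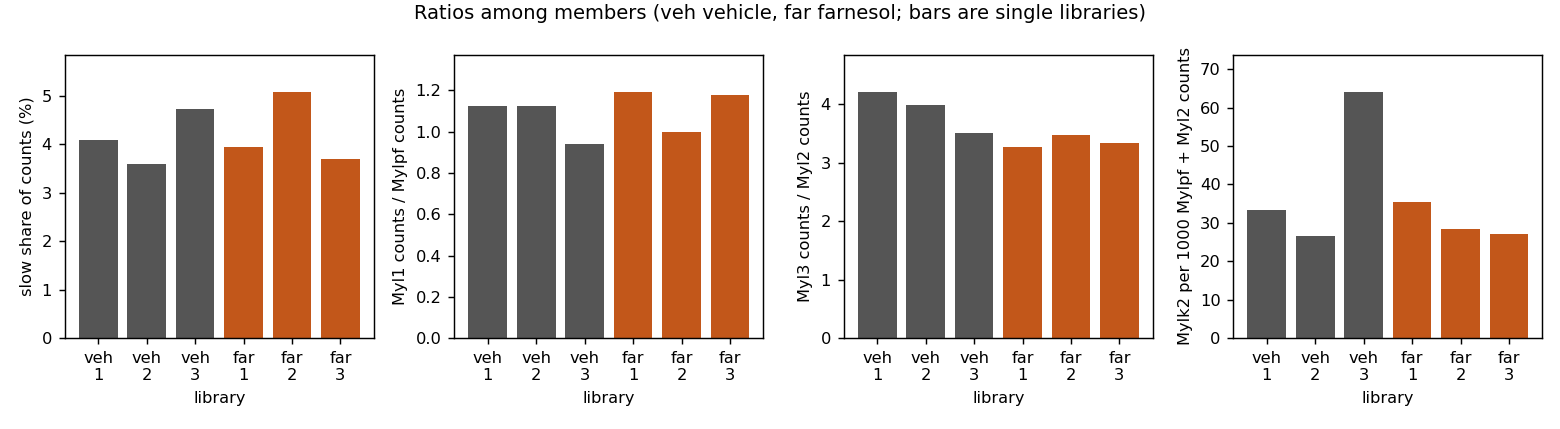
Ratios of raw counts among the members in each library (bars from 0, vehicle grey, farnesol orange): the slow share of light chain counts in percent, Myl1 over Mylpf, Myl3 over Myl2, and Mylk2 per 1000 regulatory chain counts. Vehicle replicate 3 has the highest kinase ratio, 64.1, and the farnesol bars of Myl3 over Myl2 (3.27 to 3.47) all lie below the vehicle bars (3.50 to 4.21), a ratio singled out after its values were seen.

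The ratios within the set were taken as descriptions, with no test, since they are scores over the members. The slow share of the 4 light chains' counts, Myl2 and Myl3 over all 4, was 4.09%, 3.59% and 4.72% in vehicle replicates 1 to 3 and 3.94%, 5.08% and 3.70% in farnesol replicates 1 to 3. Means were 4.14% ± 0.570 (SD, n = 3) and 4.24% ± 0.741, a difference smaller than the spread of either group. The ratio of essential to regulatory chain counts was 1.11 ± 0.102 in vehicle and 1.17 ± 0.0979 in farnesol libraries, also within the spread. Per length, Myl1 and Mylpf stood at a ratio of 1.01 ± 0.10 in vehicle and 1.07 ± 0.102 in farnesol libraries. Mylk2 had 33.3, 26.7 and 64.1 counts per 1000 counts of its substrates Mylpf and Myl2 in vehicle replicates 1 to 3, and 35.5, 28.4 and 27.2 in farnesol replicates 1 to 3. The vehicle mean, 41.4 ± 20.0, lay above the farnesol mean, 30.4 ± 4.48, and 5 of the 6 libraries lay within 26.7 to 35.5.

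Other light chains of the cell, which serve smooth muscle, non-muscle and embryonic or atrial myosins, were measured beside the members. Of 8 listed, 7 were tested and 0 passed in edgeR (0 at an unadjusted p under 0.05), with 6 higher and 1 lower (median log2 fold change 0.31, and 0.18 without farnesol replicate 1). Myl6, the essential chain of non-muscle and smooth muscle myosin, stood at 39.7, 40.7 and 39.8 CPM in vehicle replicates 1 to 3 and at 53.3, 51.9 and 46.5 CPM in farnesol replicates 1 to 3 (0.34, SE 0.17). Myl9, a smooth muscle regulatory chain, stood at 13.4 to 13.5 CPM in vehicle and 14.6 to 19.6 CPM in farnesol libraries (0.31, SE 0.24). In both genes the groups did not overlap, as in 8.82% of all genes. Myl12a, a non-muscle regulatory chain, stood at 367 ± 86.9 and 423 ± 28.4 CPM (0.20, SE 0.17).

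Of the other kinases and the calmodulins, 5 of 6 were tested, 0 passed in edgeR (0 at an unadjusted p under 0.05) and 3 were higher and 2 lower, with a median of 0.01 (-0.09 to 0.13 with 1 library left out). Mylk, the smooth muscle kinase, stood at 76.0 to 86.9 CPM in vehicle and 68.5 to 72.0 CPM in farnesol libraries, without overlap (log2 fold change -0.17, SE 0.16). Mylk4 stood at 307 ± 110 and 278 ± 85.9 CPM (-0.15, SE 0.30). Its lowest and highest libraries differed more than those of Mylk2, at 183 and 423 CPM. Mylk3, the heart kinase, had at most 3 counts in a library. Calm2, a calmodulin gene, had a log2 fold change of 0.14 (SE 0.17).

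The phosphatase that removes the phosphate from regulatory chains is built of a catalytic subunit, Ppp1cb, and a targeting subunit of the Ppp1r12 family. Of the 6 phosphatase genes listed, 6 were tested and 0 passed in edgeR (1 at an unadjusted p under 0.05), with 2 higher and 4 lower (median log2 fold change -0.04, and -0.23 without farnesol replicate 2). Ppp1r14c, of a family of phosphatase inhibitors, stood at 45.3, 43.2 and 32.4 CPM in vehicle replicates 1 to 3 and at 67.2, 46.0 and 46.7 CPM in farnesol replicates 1 to 3 (0.41, SE 0.19). Ppp1r12a had a log2 fold change of -0.18 (SE 0.16) and Ppp1r12c of -0.18 (SE 0.27). Thick filament assembly genes had 3 of 8 higher and 0 passing in edgeR (0 at an unadjusted p under 0.05), with a median of -0.07. Among them Unc45b, the chaperone that folds the myosin head, stood at 222 ± 22.8 and 193 ± 9.84 CPM (-0.20, SE 0.15). The M-band proteins Myom1 and Myom3 had log2 fold changes of -0.20 (SE 0.18) and 0.14 (SE 0.16).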

How the data were processed

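Each deposited table holds unnormalized counts of reads for gene symbols in 1 library, per the file headers and the whole-number values. The submitters' processing notes name Bowtie2, bedtools and mm10. Their versions, the annotation, strand handling and the treatment of reads with several matches are not given there or elsewhere in the sources used here. Libraries were made from 500 ng of total RNA with a Lexogen Quant-Seq kit, per the labels' protocols. Such kits are designed to count transcript ends.

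Lines with the same symbol (35 symbols, no member) were summed. The test was edgeR 4.0.16 in R 4.3.3 (filterByExpr, TMM factors of 0.905 to 1.14, robust estimateDisp and glmQLFit, glmQLFTest) with Benjamini-Hochberg adjustment over all 11674 genes tested and a threshold of 0.05; 5 of 5 members passed the filter. It was tested on simulated data, where it missed most changes of 1.5-fold. These were the smallest changes simulated and were larger than the change of any member. Standard errors were derived from the log2 fold change and the F statistic. CPM uses TMM-scaled library sizes, and log2 CPM a prior count of 2. Alternatives used DESeq2 1.42.0, limma-voom 3.58.1, other scalings and filters, a length trend (lowess, span 0.3; lengths found for 96.3% of genes), a replicate block and leaving out each library. Sequences come from GENCODE vM21 and RefSeq GRCm38.p6 (windows for 4 of 5 members), read with Biopython 1.88.

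Replicates are numbered as in the sample titles. The deposited columns of vehicle replicates 1 to 3 are headed V1, V3 and V4, and those of farnesol replicates 1 to 3 F2, F3 and F4. The members and lists were chosen with earlier results of these data known. The text names the members, up to 3 genes of smallest unadjusted p per list, and the 3 genes of at least 10 CPM most correlated with each member. Other genes named with values (Mylk3, Myl4, Myl7, Myh6, Ttn, Rn45s, Pth1r and Ccdc63), and the list counts with a library left out, were chosen after the values were seen.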

Additional observations from a re-analysis of the deposited data

How the results depend on the processing

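In no alternative did a member pass an adjusted p of 0.05; the smallest adjusted p of a member was 0.968, without the filter on low counts. Myl2 and Mylk2 kept their direction in all 16 alternatives, with log2 fold changes of 0.25 to 0.56 and -0.28 to -0.03. Myl1 and Mylpf turned to -0.081 and -0.072 without vehicle replicate 3, and Myl3 to 0.00 (-0.0016) without farnesol replicate 2. With 1 library left out the values ran from -0.08 to 0.39 for Myl1, from -0.07 to 0.31 for Mylpf and from 0.00 (-0.0016) to 0.34 for Myl3. Removing the length trend gave 0.11, 0.04, 0.13, 0.34 and -0.17 for Myl1, Mylpf, Myl3, Myl2 and Mylk2. The number of genes past the threshold was 0 in the full fit, with DESeq2 and with limma-voom. It was 13 without the filter, and 0 to 3 with 1 library left out (3 without vehicle replicate 2). Same-numbered libraries deviated from their group means with correlations of 0.04, 0.06 and -0.02 across genes, so the numbers were not taken as pairs. With the replicate block the log2 fold changes were 0.26, 0.18, 0.21, 0.42 and -0.17 in the same order and 0 genes passed. Of the ratios, the log2 difference of essential to regulatory chains was 0.07 from summed counts and -0.066 from mean log2 values, and -0.01 to 0.14 with 1 library left out. That of the kinase per substrate count was -0.35, and 0.02 without vehicle replicate 3. The cause of these changes was not tested. Depth did not limit the members, which had at least 1525 counts in each library.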

Other observations

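The ratio of the slow essential to the slow regulatory chain, singled out after its values were seen, separated the groups. Myl3 over Myl2 counts was 4.21, 3.98 and 3.50 in vehicle replicates 1 to 3 and 3.27, 3.47 and 3.33 in farnesol replicates 1 to 3. The means were 3.90 ± 0.361 (SD, n = 3) and 3.36 ± 0.102, and the gap between the nearest libraries of the groups was small. No test was made, since the ratio was picked among several. Of all single genes tested, 8.82% also separated the groups.

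The slow share differed by kind of chain. Myl2 made up 1.79% ± 0.274 of regulatory chain counts in vehicle and 2.10% ± 0.227 in farnesol libraries (SD, n = 3), and Myl3 6.27% ± 1.03 and 6.10% ± 1.37 of essential chain counts. Myh7 made up 0.406% ± 0.0214 of the counts of Myh1, Myh2, Myh4 and Myh7 in vehicle libraries. In farnesol libraries it made up 0.548% ± 0.185, where farnesol replicate 2 alone stood at 0.761%. This share also separated the groups, though narrowly, at up to 0.426% in vehicle and from 0.427% in farnesol libraries. It too was among several ratios computed and was not tested, and 8.82% of all single genes tested separated the groups.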
